A study of Rattus norvegicus with 17 samples.

Results

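Stimulation of the nucleus raphe magnus (NRM) was compared with sham stimulation in rats that had all received a spinal cord injury (SCI), the contrast called ±st(SCI). It takes in 6 of the 17 rats sequenced. The 3 rats of group B (rats 91, 94 and 95) had SCI and sham stimulation, and the 3 rats of group C (rats 89, 90 and 93) had SCI and 2 h of stimulation. The members were taken from the group letters in the column names, with no use of measured values, and the comparison covers all 14628 of 32494 genes that passed a filter on low counts in these 6 rats. The animals were young adult female Sprague-Dawley rats with a moderate thoracic contusion, and 3 days after it the electrodes were placed under isoflurane. Sham-stimulated rats also had electrodes placed, and all of these rats received buprenorphine and gentamycin, so that both groups share the injury, the anesthesia, the implantation and the drugs. Blocks of cervical, thoracic and lumbar cord were pooled within a rat together with the pia-arachnoid and taken at the end of stimulation. A library therefore averages the lesion with distant cord, its meninges and whatever blood its vessels held. The other groups appear below as values beside the comparison: group A (sham injury and sham stimulation, 4 rats), group E (sham injury with stimulation, 5 rats) and group D (SCI, stimulation and pimozide, an antagonist of monoamine receptors, 2 rats). For group E the treatment labels say unstimulated. The titles give only the letter E, which the study's methods define as stimulated, and the methods were followed.

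The NRM is a midline nucleus of the lower brainstem. Its serotonergic neurons project down the cord, where they are known for damping pain signals and for setting the excitability of motor and autonomic neurons. Of the 43 transcripts listed for this contrast, 34 are best known from blood and marrow. Red cell precursors make globins, heme and the membrane proteins of the erythrocyte under the control of erythroid transcription factors, and lose their nucleus before they enter the blood. Granulocyte precursors make the proteases, peroxidases and defensins of the primary granules in the marrow, and mature neutrophils carry the calprotectin subunits S100a8 and S100a9 in their cytosol. Megakaryocytes supply platelets with their adhesion receptors and granule proteins.

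The 6 libraries were of like depth, with 10334208 to 10518498 counts in group B and 10606401 to 11664116 in group C, so that 1 CPM, the unit of the levels below (counts scaled to library size), rests on about 10 reads. TMM factors, which scale for library composition, lay between 0.978 and 1.03. Each library is 1 rat. Between rats of a group, the chi-square per degree of freedom, which is 1 where counting is the only error, was 4.98 to 9.39 in group B and 11.6 to 38 in group C, where rats 89 and 93 were the most unlike. Intervals that cover counting error only are therefore narrower than the spread between rats. The markers of spinal cord tissue and of other cell types could not be checked, because only 99 of the identifiers could be paired with a gene name.

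Most genes differed little between stimulated and sham-stimulated injured rats. The median log2(FC), C against B, was 0.01 over the 14628 genes, the 5th and 95th percentiles were -0.30 and 0.39, and for 12612 genes (86.2%) the 95% confidence interval lay entirely between -1 and 1. Of the 106 genes beyond a 2-fold difference, 89 were higher in group C and 17 lower. A gene was called where its FDR was below 0.05 and its change exceeded 1 on the log2 scale in either direction. The quasi-likelihood test of edgeR, fitted to the 6 rats, called 3 genes, all higher in group C, which is 0.0205% of the genes tested. At an unadjusted p under 0.05 it had 266 genes, or 1.82%. The pairwise exact test of edgeR on the same rats, the test that the study's methods name, was run on all 32494 genes and called 43, or 0.132%, of which 39 were higher (0.12%) and 4 lower (0.0123%), with 425 genes (1.31%) at an unadjusted p under 0.05. The common and tagwise dispersions of this exact test were chosen after it was seen that they give the 43 transcripts of the study's own list for this contrast, and trended dispersions gave 33. The match is therefore a result of that choice. The list was picked from these rats, so that the differences of its members below are descriptions and not independent evidence. DESeq2 on the 6 rats called 24 genes (0.11%), all higher in group C and all among the 43, whereas limma-voom called 0, with 257 genes at an unadjusted p under 0.05. With all 17 rats in one quasi-likelihood model, which gives the 5 groups one estimate of the spread, 0 genes were called and 476 had an unadjusted p under 0.05 (3.08%).

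**Figure D1:**
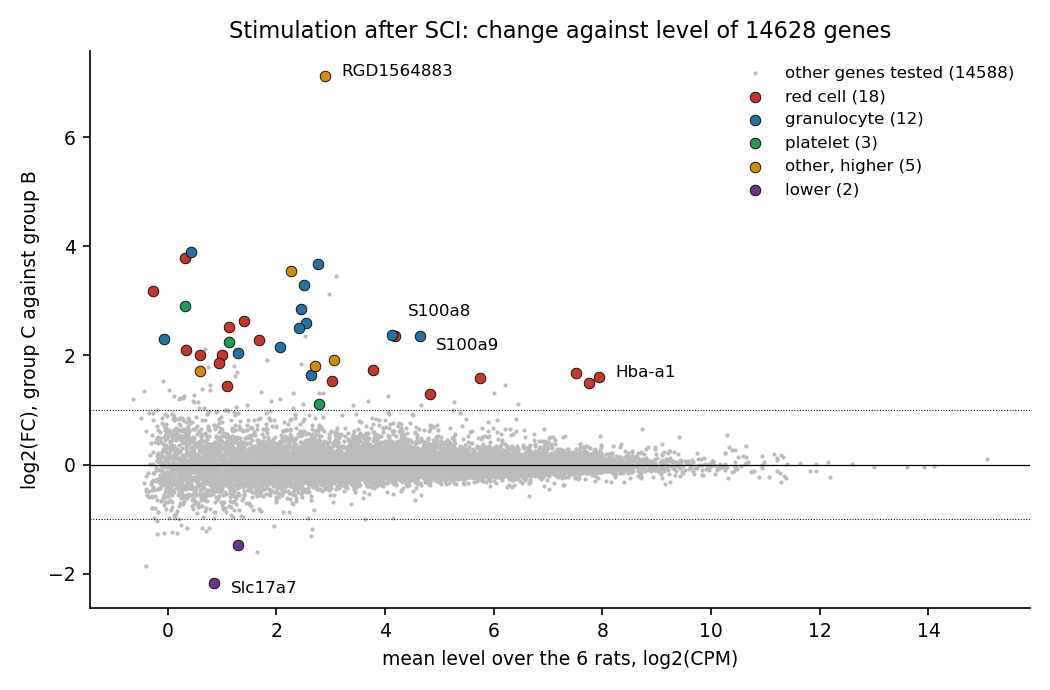
Each point is 1 of the 14628 genes tested, with its mean level over the 6 rats on the x axis (log2(CPM)) and its log2(FC), C against B, on the y axis; the dotted lines mark a 2-fold difference and the colored points are the 40 listed transcripts that passed the filter on low counts. The bulk of genes lies close to 0 at every level, while 38 of the colored points lie above the upper line and 2 below the lower one.

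S100a8 (ENSRNOG00000011557) and S100a9 (ENSRNOG00000011483), the subunits of calprotectin, were 2 of the 3 genes called by the quasi-likelihood test. S100a8 had 6.15, 5.58 and 5.30 CPM in rats 91, 94 and 95 of group B and 30.3, 35 and 22.5 CPM in rats 89, 90 and 93 of group C. The lowest stimulated rat was 3.66 times as high as the highest sham-stimulated rat, and the 3 sham-stimulated rats lay close together. Its log2(FC) was 2.37 (SE 0.19, adjusted p of 0.0177 in edgeR's quasi-likelihood fit). In a bulk sample such a difference can be more cells of a type or more RNA per cell, which cannot be told apart here, nor for any transcript below. S100a9 had 10.6, 6.73 and 7.32 CPM in group B against 40.1, 52.4 and 32.6 CPM in group C, or a log2(FC) of 2.35 (SE 0.23, adjusted p of 0.0498 in the same edgeR fit). Groups B and C did not overlap for either gene. Intact rats spread more widely, with S100a8 at 1.35 to 19.1 CPM in group A and 1.11 to 21.8 CPM in group E. For S100a9 the ranges were 1.77 to 29.7 CPM and 2.72 to 34.2 CPM, the last of these above rat 93 of group C. The call of both genes was lost by limma-voom, in the fit of 17 rats and without rat 91, 94, 95 or 90. The adjusted p of S100a9 stands at the threshold, and it was lost as well with scaling by total counts, with RLE scaling and with a filter of 1 CPM in 3 rats. In the current rat assembly (GRCr8, RefSeq) S100a8 and S100a9 are direct neighbours with 0 genes between them.

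The other gene called was RGD1564883 (ENSRNOG00000029115), annotated in RefSeq as a pseudogene of ribosomal protein L12, Rpl12a-ps1, for which reads of the parent gene and of other copies cannot be kept apart with certainty. It had 1 read in each of the 3 rats of group B and 229, 149 and 122 reads in rats 89, 90 and 93 of group C. The pooled ratio was 154, with an exact binomial 95% interval from 52.6 to 752 that covers counting error only, and the adjusted p was 0.00347 (edgeR's quasi-likelihood test), a call that was lost under the same 3 changes as those of the calprotectin genes: limma-voom, 17 rats, and rat 91, 94, 95 or 90 left out. High and near-zero rats occurred among intact rats as well, with 15.4, 14.6, 0.76 and 11.5 CPM in rats 70, 82, 83 and 84 of group A and 6.21, 0, 0.14, 8.17 and 0.0875 CPM in rats 69, 85, 86, 87 and 88 of group E, and it was 0 in both rats of group D.

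**Figure D2:**
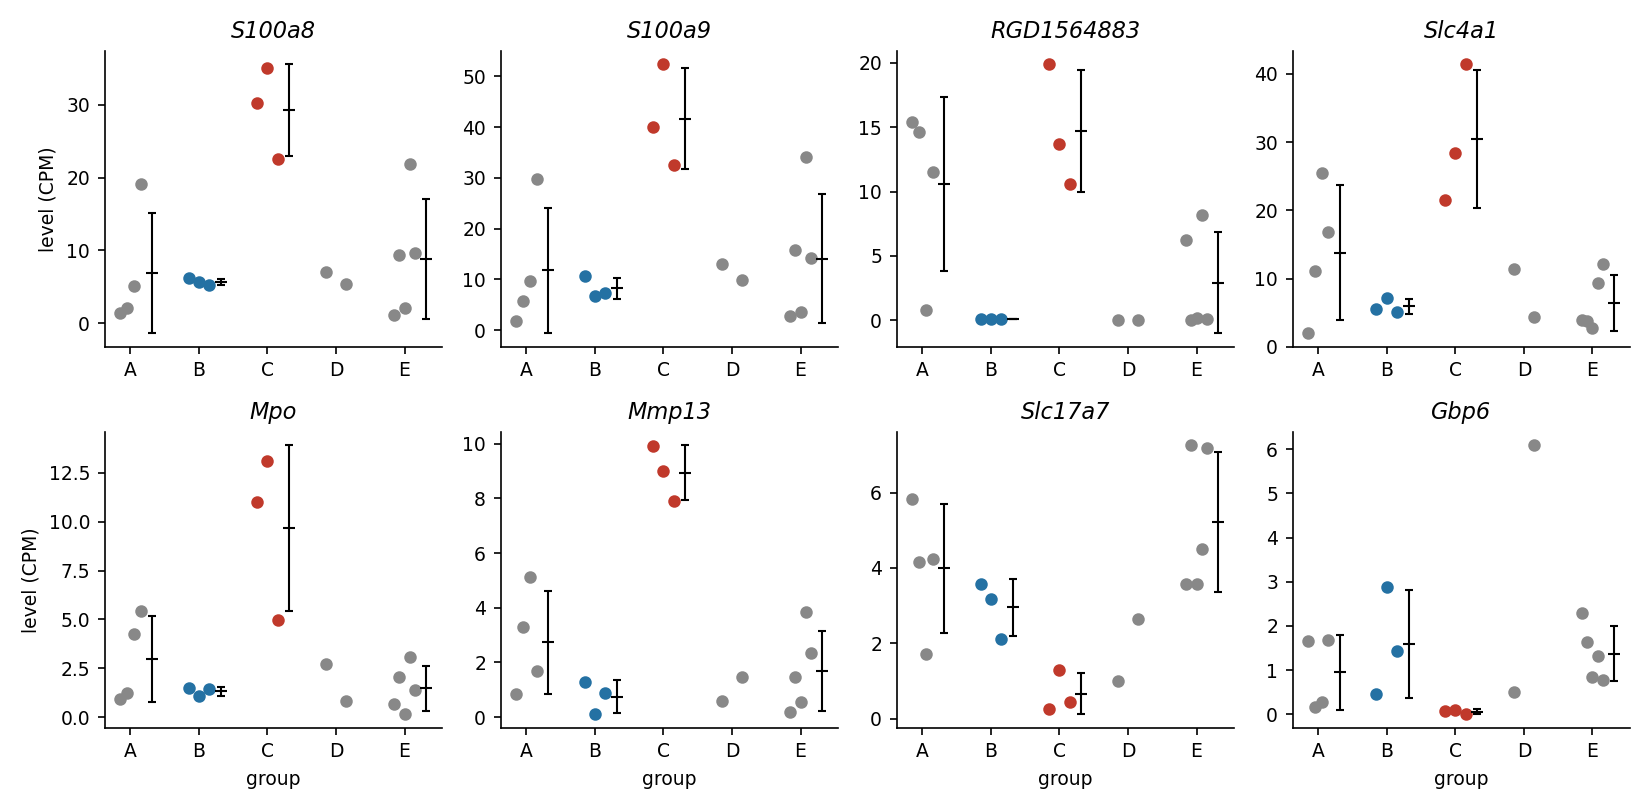
Levels (CPM) of 8 transcripts in each rat, with group on the x axis and, for groups of 3 or more, the mean and SD as a bar beside the points. The 3 rats of group C lie above the 3 of group B for S100a8, S100a9, RGD1564883, Slc4a1, Mpo and Mmp13 and below them for Slc17a7 and Gbp6, and the intact rats of groups A and E spread widely in most panels.

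Red cell transcripts formed the largest class of the list. All 18 were higher in every rat of group C than in every rat of group B. Non-overlap of this direction was found for 448 of the 14628 genes tested, or 3.06%. All 18 were called by the pairwise exact test (0.132% of all genes), which is also how the list was picked. DESeq2 called 7 (0.11% of genes) and the quasi-likelihood test 0 (0.0205% of genes). The 18 log2(FC) values ran from 1.30 to 3.78 with a median of 1.93, against a median of 0.01 over all genes tested. A log2(FC) beyond 1 was a condition of the list, so that the distance between these medians was in part fixed in advance.

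The 5 globin chains of hemoglobin had log2(FC) values from 1.30 to 1.67. Hba-a1, an alpha globin (ENSRNOG00000029886), had 101, 147 and 117 CPM in rats 91, 94 and 95 and 210, 266 and 635 CPM in rats 89, 90 and 93. Hbb, a beta globin (ENSRNOG00000058105), had 90.5, 133 and 116 CPM against 179, 249 and 525 CPM. Rat 93 alone lay far above the others in both cases. Without it the exact test gave a log2(FC) of 0.97 for Hba-a1 and 0.92 for Hbb. With all rats the values were 1.61 (SE 0.39) and 1.49 (SE 0.37) in the quasi-likelihood fit. The adjusted p of both was 1 by the quasi-likelihood test of edgeR and 0.000824 and 0.00142 by its pairwise exact test. Hba-a2, Hbb-b1 and LOC103694857 followed the same order of rats, with log2(FC) values of 1.67, 1.30 and 1.58 in the quasi-likelihood fit. Without rat 93 the exact test gave 1.02, 0.85 and 0.96. Within the alpha and within the beta family the globin genes are close copies, so that reads may have been divided among the copies of a family by the counting. Hba-a1 and Hba-a2 also share a run of 80 bases in their promoters. Ahsp, the chaperone that holds free alpha globin in solution, differed in its order of rats. It had 0.734, 1.64 and 0.867 CPM in group B and 4.17, 6.63 and 5.12 CPM in group C, with the highest value in rat 90 and a log2(FC) of 2.29 (SE 0.35, adjusted p of 0.228 in edgeR's quasi-likelihood fit).

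The 9 enzymes and membrane proteins of the red cell had log2(FC) values from 1.45 to 3.78. Slc4a1 (ENSRNOG00000020951), the band 3 anion exchanger of the erythrocyte membrane, had 5.60, 7.12 and 5.10 CPM in group B and 21.5, 28.4 and 41.4 CPM in group C. Its log2(FC) of 2.36 (SE 0.27) had an adjusted p of 0.0753 in the quasi-likelihood fit of edgeR, outside the threshold, and 1.8e-13 in its exact test. Alas2, the erythroid enzyme that starts heme synthesis, had 4.77, 8.37 and 5.87 CPM against 12.6, 13.8 and 37.2 CPM, again with rat 93 far above the rest. Car1, the red cell carbonic anhydrase, had 2, 2 and 1 reads in the sham-stimulated rats and 20, 36 and 22 in the stimulated rats, a pooled ratio of 14.5 with a counting interval from 5.94 to 45.8. Rhag, the glycoprotein that carries the Rh complex, had 5, 0 and 0 reads against 12, 21 and 18, a ratio of 9.45 (counting interval 3.8 to 30.4). Rhd, its partner in that complex, had 0.275, 0.770 and 0.867 CPM against 2.17, 3.50 and 5.47 CPM. The Kell antigen protease Kel, the erythroblast protein Ermap, the band 4.2 gene Epb42 and the water channel Aqp1 had log2(FC) values of 2.00, 2.10, 1.45 and 1.54. Aqp1 is also made by endothelium and other cells, and it was the one transcript of this subclass with its lowest stimulated value in rat 93.

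The 3 regulators of the red cell lineage had log2(FC) values from 1.87 to 2.63. Klf1, the zinc finger activator of beta globin, had 0.459, 0.866 and 0.482 CPM in group B and 1.83, 3.04 and 2.43 CPM in group C. Nfe2, a subunit of the factor NF-E2 that erythroid cells and megakaryocytes share, had 1.10, 0.481 and 0.867 CPM against 2.87, 3.04 and 3.13 CPM, the least spread of the 3 regulators in group C (SD 0.131, n = 3). Hemgn, a nuclear protein of erythroid precursors, had 0.734, 0.673 and 0.770 CPM against 2.78, 5.43 and 5.38 CPM, a log2(FC) of 2.63 (SE 0.36, adjusted p of 0.139 in edgeR's quasi-likelihood fit).

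Promoters of the red cell transcripts often held the letters bound by GATA factors, and 4 are shown as 1 example each of a globin, a heme enzyme, a membrane protein and a regulator. Sequences are from RefSeq, assembly GRCr8, and are windows of 300 bases around an annotated start, 5′ to 3′, on the strand of the gene. Capitals mark, on either strand, a run of 6 bases in which GATA follows A or T and precedes A or G.
Hba-a1 (chr10:15842531-15842830, minus strand): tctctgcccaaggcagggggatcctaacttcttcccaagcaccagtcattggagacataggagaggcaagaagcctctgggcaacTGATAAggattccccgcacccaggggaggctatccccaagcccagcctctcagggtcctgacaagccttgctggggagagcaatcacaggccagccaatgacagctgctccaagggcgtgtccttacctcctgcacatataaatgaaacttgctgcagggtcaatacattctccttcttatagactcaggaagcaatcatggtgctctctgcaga
Alas2 (chrX:22895200-22895499, plus strand): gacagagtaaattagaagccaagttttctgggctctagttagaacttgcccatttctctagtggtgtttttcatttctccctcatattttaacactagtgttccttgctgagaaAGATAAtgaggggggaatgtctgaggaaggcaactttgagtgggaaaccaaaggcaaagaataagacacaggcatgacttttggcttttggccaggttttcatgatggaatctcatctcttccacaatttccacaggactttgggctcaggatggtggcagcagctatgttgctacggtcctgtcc
Rhag (chr9:27594341-27594640, minus strand): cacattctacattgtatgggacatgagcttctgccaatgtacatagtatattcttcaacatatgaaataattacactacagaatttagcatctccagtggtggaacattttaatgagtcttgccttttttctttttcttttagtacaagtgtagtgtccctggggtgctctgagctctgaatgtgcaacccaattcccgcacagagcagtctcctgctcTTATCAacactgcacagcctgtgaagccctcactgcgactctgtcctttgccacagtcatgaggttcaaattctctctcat
Klf1 (chr19:40158602-40158901, minus strand): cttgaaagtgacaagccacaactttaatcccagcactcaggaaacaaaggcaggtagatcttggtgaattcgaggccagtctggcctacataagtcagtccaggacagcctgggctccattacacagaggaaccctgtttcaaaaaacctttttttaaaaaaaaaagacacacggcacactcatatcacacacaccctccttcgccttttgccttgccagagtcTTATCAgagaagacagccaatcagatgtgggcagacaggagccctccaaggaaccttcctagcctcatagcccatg
Of the 43 transcripts, 38 matched a RefSeq name or synonym and 30 had a promoter. A GATA match stood in 11 of 13 red cell promoters (84.6%), in 4 of 10 granulocyte promoters (40%) and in 31.8% of 27457 genes with a promoter in that table, each gene counted once over its starts. The CACCC letters of erythroid Klf factors (CCACACCC, also with G for A at the third base, at the fifth base or at both) stood in 4 of 13 red cell promoters, 0 of 10 granulocyte promoters and 13.3% of all. Near copies are counted separately here. Hba-a1 and Hba-a2 both hold a GATA and a CACCC match, and the defensins Np4 and RatNP-3b both hold a GATA match. A match is a description of letters and not a binding site.

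The 13 granulocyte transcripts were all higher in every rat of group C than in every rat of group B, as were 3.06% of the genes tested. All were called by the pairwise exact test (0.132% of all genes), which is also how the list was picked. DESeq2 called 11 (0.11% of genes) and the quasi-likelihood test 2, the calprotectin genes (0.0205% of genes). The 13 log2(FC) values of the exact test ran from 1.65 to 3.90, with a median of 2.37.

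Of these, 6 belong to the primary granules. Ctsg, the protease cathepsin G, had 1, 1 and 3 reads in rats 91, 94 and 95 and 31, 33 and 21 in rats 89, 90 and 93, a pooled ratio of 15.8 (counting interval 6.49 to 49.8). Mpo, myeloperoxidase (ENSRNOG00000008310), had 1.47, 1.06 and 1.44 CPM against 11, 13.1 and 4.95 CPM, a log2(FC) of 2.86 (SE 0.40, with adjusted p values of 0.146 in the quasi-likelihood fit and 1.1e-08 in the exact test of edgeR). The defensin Np4 had 1.28, 0.481 and 1.16 CPM against 14.1, 17.8 and 6.17 CPM, and Defa5 had 1.65, 0.770 and 0.674 CPM against 12.7, 11.9 and 6.43 CPM. In each of these the stimulated rat nearest to the sham-stimulated rats was rat 93. RatNP-3b, a further defensin, had a log2(FC) of 2.5 (SE 0.39). Elane, neutrophil elastase, fell under the filter of the quasi-likelihood test with 2, 2 and 4 reads in group B and 18, 19 and 8 in group C, a ratio of 5.21 (counting interval 2.43 to 12.8). The alpha defensins form a cluster of near copies on chromosome 16, with 2 other genes between Np4 and RatNP-3b and 9 between Np4 and Defa5 in GRCr8, so that the split of reads among them is uncertain.

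The other granulocyte transcripts stand for later or different granules and for the cytosol. Ngp and Camp, proteins of the secondary granules, had log2(FC) values of 2.60 (SE 0.30) and 2.16 (SE 0.31), with adjusted p values of 0.0753 and 0.158 by edgeR's quasi-likelihood test. Ngp had 1.19, 1.35 and 2.41 CPM in group B and 10.3, 11.5 and 8.25 CPM in group C, so that the 3 stimulated rats lay close together. Fcnb, a ficolin that recognizes microbial sugars, had 3.39, 2.12 and 3.47 CPM against 14.2, 8.19 and 5.90 CPM, the smallest log2(FC) of the class at 1.65 (SE 0.36). Abca13, a lipid transporter found in myeloid precursors, had 1.01, 0.866 and 0.963 CPM against 3.22, 6.08 and 2.52 CPM. Epx, the peroxidase of eosinophils rather than of neutrophils, had 0.459, 0.192 and 0.289 CPM against 1.22, 1.84 and 1.74 CPM, a log2(FC) of 2.30 (SE 0.42). Epx and Mpo lie on chromosome 10 with 2 genes between them, and Camp and Ngp on chromosome 8 with 11.

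Letters bound by C/EBP factors (TTNNGCAA on either strand, with N for any base) stood in 4 of 10 granulocyte promoters (40%), in 1 of 13 red cell promoters (7.69%) and in 11.4% of the 27457 genes. Of the 4, 3 are shown, with the match in capitals, for a pair of defensins and a secondary granule gene.
Np4 (chr16:77199593-77199892, minus strand): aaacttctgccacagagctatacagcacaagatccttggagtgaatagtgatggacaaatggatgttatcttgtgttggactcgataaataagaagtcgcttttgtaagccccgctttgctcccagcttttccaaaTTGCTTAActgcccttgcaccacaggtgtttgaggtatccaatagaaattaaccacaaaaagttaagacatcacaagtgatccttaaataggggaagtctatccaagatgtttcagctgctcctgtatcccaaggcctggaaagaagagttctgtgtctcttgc
RatNP-3b (chr16:77248928-77249227, minus strand): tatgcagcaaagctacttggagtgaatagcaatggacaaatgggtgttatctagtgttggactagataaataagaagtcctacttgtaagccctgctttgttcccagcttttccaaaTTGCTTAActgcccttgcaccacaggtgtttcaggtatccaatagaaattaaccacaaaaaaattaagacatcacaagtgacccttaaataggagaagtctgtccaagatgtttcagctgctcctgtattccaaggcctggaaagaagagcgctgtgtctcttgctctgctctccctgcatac
Ngp (chr8:119272355-119272654, plus strand): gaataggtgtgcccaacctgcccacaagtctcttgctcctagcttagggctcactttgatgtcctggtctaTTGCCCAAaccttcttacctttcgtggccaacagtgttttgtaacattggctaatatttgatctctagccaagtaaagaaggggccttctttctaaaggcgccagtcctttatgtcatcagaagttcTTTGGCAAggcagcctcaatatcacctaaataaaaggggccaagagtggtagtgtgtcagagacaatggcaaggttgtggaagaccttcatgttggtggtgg
The promoters of Np4 and RatNP-3b share an unbroken run of 47 bases that includes the match, so that their matches are not independent of each other. ETS letters (GAGGAA) stood in 30.8% of the red cell and 40% of the granulocyte promoters against 29.2% of all genes, and TATAAA in 38.5% and 30% against 15.3%. No match in these windows says only that the letters are not there.

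A further 3 transcripts of the megakaryocyte and platelet lineage were called by the pairwise exact test (0.132% of all genes), which is how the list was picked. DESeq2 called 2 of them (0.11% of genes) and the quasi-likelihood test 0 (0.0205% of genes). Itga2b, the alpha chain of the platelet fibrinogen receptor, had 3.94, 4.33 and 4.82 CPM in group B and 10.4, 10.3 and 7.73 CPM in group C. Its log2(FC) of 1.12 (SE 0.20) was the smallest of the 39 higher transcripts. Mmrn1, multimerin of platelet granules and endothelium, had 1.10, 0.673 and 0.482 CPM against 4.69, 3.41 and 2.69 CPM. Ppbp, the platelet chemokine precursor, had 0.642, 0 and 0.193 CPM against 2.26, 3.31 and 1.04 CPM, a log2(FC) of 2.91 (SE 0.78). Another pair of platelet transcripts, called by neither test here, is named because the study lists it for its pimozide contrast. That contrast shares group C, so that high values in group C favored their choice, and their values add no support to the class. Gp1ba, the von Willebrand factor receptor chain, had 2, 1 and 2 reads against 12, 13 and 6, a ratio of 5.75 (counting interval 2.22 to 18.9, adjusted p of 0.149 in edgeR's exact test on the pair). Tubb1, the tubulin of the platelet marginal band, had 1.65, 0.385 and 0.674 CPM against 2.09, 2.85 and 2.61 CPM, a log2(FC) of 1.46 (SE 0.47, unadjusted p of 0.0149 in edgeR's quasi-likelihood fit).

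Of the other transcripts higher in group C, Mmp13 (ENSRNOG00000008478), a collagenase of cartilage, bone and remodeling tissue, had 1.28, 0.0962 and 0.867 CPM in group B and 9.91, 9.02 and 7.90 CPM in group C. The stimulated rats lay close together and far above the rest, and the log2(FC) was 3.55 (SE 0.49, with adjusted p values of 0.139 in the quasi-likelihood fit and 2.02e-16 in the exact test of edgeR). Timd2, of the T cell immunoglobulin and mucin domain family, had 0.459, 0.866 and 0.770 CPM against 1.74, 2.12 and 3.04 CPM. LOC103690079 and Robo-1, whose roles are not given here, had log2(FC) values of 1.92 (SE 0.44) and 1.81 (SE 0.41). LOC102555453 is named through the study's pimozide list, a contrast that shares group C and so favored high values there. Its log2(FC) was 0.91 (SE 0.21), with 18.3, 15.4 and 13.8 CPM against 38.9, 26.2 and 23.8 CPM and an adjusted p of 0.0606 by edgeR's pairwise exact test.

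There were 4 transcripts lower in group C by the pairwise exact test, none of which was called by DESeq2. The quasi-likelihood test covered 2 of them, Slc17a7 and AABR07043748.1, and called neither. Slc17a7 (ENSRNOG00000020650), which loads glutamate into synaptic vesicles, had 3.58, 3.17 and 2.12 CPM in group B and 0.261, 1.29 and 0.434 CPM in group C. The groups did not overlap, as in 2.93% of the genes tested in this direction, and its log2(FC) was -2.16 (SE 0.52, adjusted p of 0.00357 in edgeR's exact test on the pair). It was not called without rat 91, 94 or 93, and its log2(FC) ran from -3.04 to -1.78 with 1 rat left out. Gbp6, a guanylate binding protein induced by interferon, had 5, 30 and 15 reads against 1, 1 and 0. Group B was 27.0 times as high, with a counting interval from 7.09 to 229. Without rat 94 the exact test did not call it. AABR07043748.1 had 4.04, 4.14 and 2.70 CPM against 1.91, 1.01 and 0.955 CPM. AABR07043200.1 had 12, 0 and 17 reads in group B and none in the 3 rats of group C. The pooled ratio of C to B had a counting interval (exact binomial) that ends at 0.126. It is the one listed transcript for which the groups overlapped, since rat 94 of group B also had none.

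The classes did not follow the same order among the 3 stimulated rats. The summed level of the 5 globins was 615, 802 and 1837 CPM in rats 89, 90 and 93, and that of the 13 other red cell transcripts was 72.1, 90.4 and 122 CPM. The 13 granulocyte transcripts summed to 162, 179 and 104 CPM in the same order, and the 3 platelet transcripts to 17.4, 17 and 11.5 CPM. Rat 93 was thus the highest for red cell transcripts and the lowest for granulocyte and platelet transcripts by these sums. By transcript, 12 of the 13 granulocyte transcripts had their lowest stimulated value there. The red cell transcripts were less uniform, with the highest stimulated value in rat 93 for all 5 globins but for 6 of the 13 others, and in rat 90 for another 6 of them. Sham-stimulated rats were at 301, 438 and 356 CPM for the globins, 23.3, 27.1 and 18.5 CPM for the other red cell transcripts, 30.7, 21.5 and 27.7 CPM for the granulocyte transcripts and 5.69, 5.00 and 5.49 CPM for the platelet transcripts (rats 91, 94 and 95). As a share of all counts, the 18 red cell transcripts made up 0.0324% to 0.0465% in group B and 0.0687% to 0.196% in group C, and the granulocyte transcripts 0.00215% to 0.00307% and 0.0104% to 0.0179%. The mean sum of group C stood to that of group B as 2.97 for the globins, 4.13 for the other red cell transcripts, 8.53 for the 6 primary granule transcripts, 5.57 for all granulocyte transcripts and 2.84 for the platelet transcripts. Without rat 93 the ratio of the globins was 1.94, while the other 4 ratios moved by less than 1.5 times without any 1 rat.

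**Figure D3:**
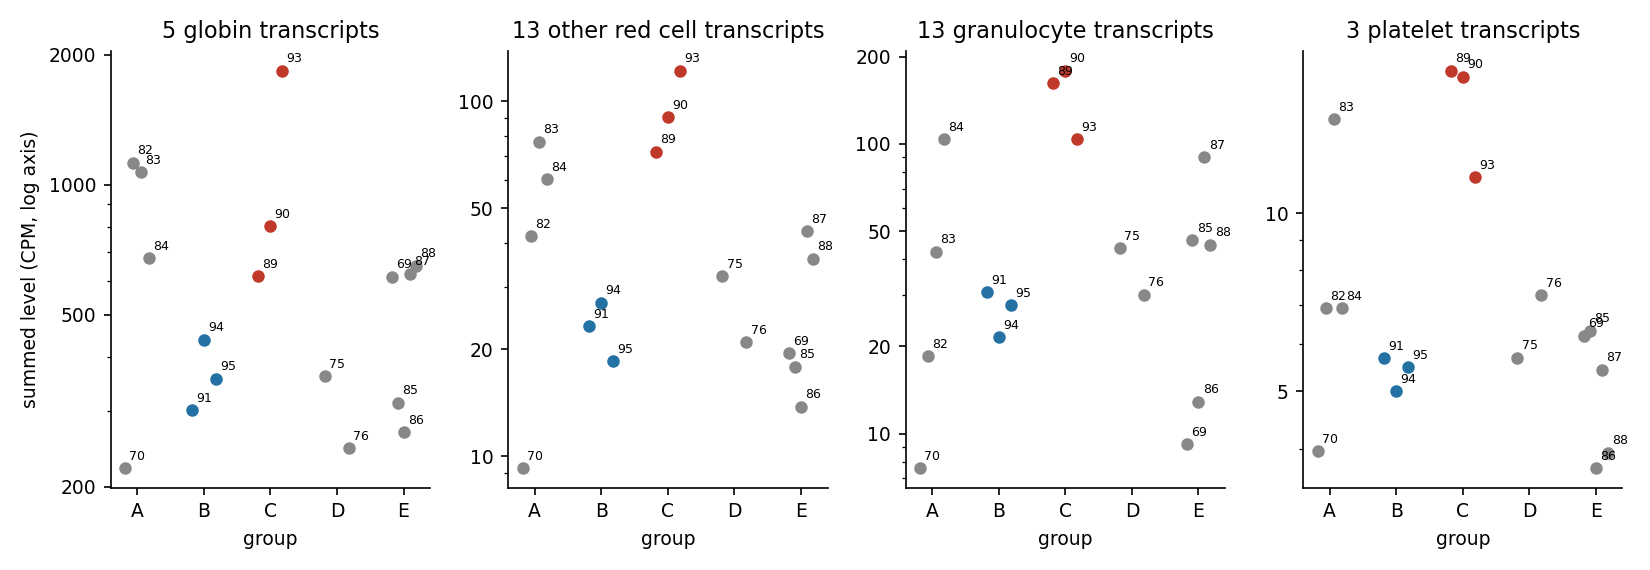
Summed level of 4 classes of listed transcripts in each of the 17 rats (CPM, log axis), with groups on the x axis and rat numbers beside the points. Group C lies above group B in each panel, rat 93 is the highest stimulated injured rat for red cell transcripts and the lowest for granulocyte and platelet transcripts, and the 4 rats of group A span a range that overlaps group C for the globins, the other red cell and the platelet transcripts and meets it at 104 CPM for the granulocyte transcripts.

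The intact, sham-stimulated rats of group A spread widely in the same transcripts. Their globin sum was 221 CPM in rat 70 and 1124, 1071 and 676 CPM in rats 82, 83 and 84, against 773 ± 419 (SD, n = 4) for the group and 365 ± 68.9 (SD, n = 3) in group B. Their granulocyte sum was 7.61, 18.5, 42.5 and 104 CPM in the same order of rats. Rat 70 had the lowest value of group A for 35 of the 39 transcripts that were higher in group C, and 11 of the 39 were higher in every rat of group C than in every rat of group A. High values in group C favored the choice of the list. The share of all genes with such a non-overlap was not computed, so that the 11 cannot be called many or few. The median coefficient of variation over the 39 was 72.4% in group A, 33.7% in group B, 33.0% in group C and 72.1% in group E. The test that picked the list favors a small spread within groups B and C, so that their lower values are in part built in. The same value over all genes was not computed. In group D, the pimozide-treated injured rats 75 and 76 had 361 and 246 CPM of globins and 43.6 and 30.2 CPM of granulocyte transcripts. Groups A and D enter here as values only, because comparisons that share group B or C are tied to this one.

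In intact rats, none of the 43 transcripts passed a test of stimulation against sham stimulation. In group E against group A, which shares no rat with group B or C, 0 of 15460 genes were called by edgeR's quasi-likelihood test over the 17 rats, with 1297 at an unadjusted p under 0.05 (8.39%). With the 9 rats of those groups alone, 0 of 14615 were called and 1638 (11.2%) had an unadjusted p under 0.05. On the same 9 rats the pairwise exact test, run as for C against B, called 28 of 32494 genes (0.0862%), 20 higher (0.0615%) and 8 lower (0.0246%) in group E, with 1794 (5.52%) at an unadjusted p under 0.05. With trended dispersions it called 18 (0.0554%), and DESeq2 called 16 (0.0699%). None of these calls was among the 43, whose smallest adjusted p was 0.304 by edgeR's exact test and 0.227 by DESeq2. Of the 39 transcripts that were higher in the injured rats, 7 had a log2(FC) above 0 and 32 below 0 in the intact rats, with a median of -0.63, whereas 47.8% of all genes lay below 0. The members vary together across these rats. Rat 70 had the lowest value of group A for 17 of the 18 red cell transcripts, and rat 87 the highest of group E for 30 of the 39. Their signs are therefore not independent, and a count of them is a description only. All 18 red cell transcripts lay below 0, with Slc4a1 at -1.13 (SE 0.52) and Hba-a1 at -0.68 (SE 0.39), and the smallest adjusted p among the 43 was 0.438 by edgeR's quasi-likelihood test, for Kel. The calprotectin genes lay near 0, at 0.35 (SE 0.69) for S100a8 and 0.25 (SE 0.64) for S100a9. The rats of groups A and E overlapped for each of the 43, and the share of all genes for which they did not was not computed.

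The difference of stimulation between injured and intact rats was tested as an interaction, (C - B) - (E - A), in the model of 17 rats. No gene was called, with 635 of 15460 (4.11%) at an unadjusted p under 0.05 by edgeR's quasi-likelihood test, and DESeq2 called 0 as well. The interaction log2(FC) was above 0 for all 39 higher transcripts, with a median of 2.60, and below 0 for the 4 lower ones, but C against B enters that value and had chosen the list. It was 3.49 (SE 0.82) for Slc4a1, 3.89 (SE 0.94) for Mpo and 1.75 (SE 0.35) for Itga2b, and the smallest adjusted p among the 43 was 0.804. For S100a8 the interaction was 2.02 with a 95% interval from -0.24 to 4.28, which includes 0.

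**Figure D4:**
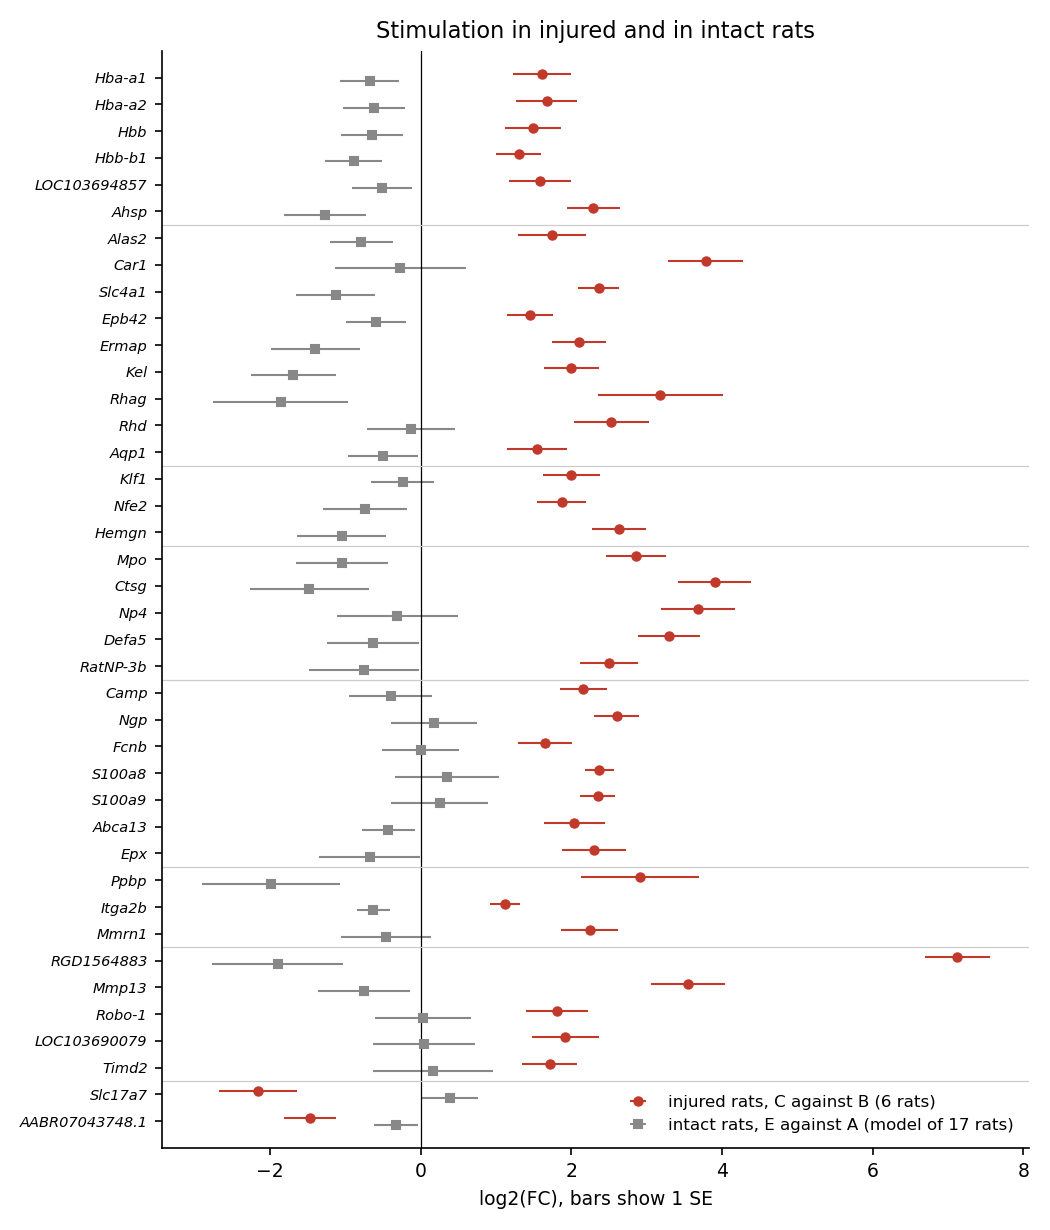
Log2(FC) of the 40 listed transcripts tested in the 6 injured rats (circles, C against B) and of the same transcripts in the intact rats (squares, E against A), with bars of 1 SE and lines between classes. The circles lie above 1 for the 38 higher transcripts, and the squares of the red cell transcripts all lie below 0, between -1.86 for Rhag and -0.13 for Rhd.

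Library content differed between groups A and E in another respect, which is given beside that contrast. A set of 33 small RNAs, named by the study in its pimozide contrast, summed to 559, 3138, 494 and 493 CPM in rats 70, 82, 83 and 84 of group A and to 1969 to 5011 CPM in group E. Their part in the values of E against A was not tested. In the injured groups of this comparison their sums were 375, 623 and 492 CPM in group B and 437, 559 and 502 CPM in group C. The rats of both groups overlapped for each of the 33, and none was called by the exact test or DESeq2, nor by the quasi-likelihood test, which covered 20 of them.

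Besides Gbp6, 6 interferon-induced transcripts could be named, and neither edgeR test nor DESeq2 called them. These were Mx1, Mx2, Oasl, Oas2, Ifit2 and Uba7, which act against viruses or attach the ubiquitin-like protein Isg15. They, Ltc4s, Dnah8 and Dnah17 are named through the study's pimozide contrast, in which all 9 were lower in group C than in group D, so that low values in group C favored their choice. The 6 had log2(FC) values between -0.47 and -0.12 with unadjusted p values from 0.165 to 0.713 (edgeR's quasi-likelihood test), and the groups overlapped for all 6. Their sum was 90.2, 85.6 and 155 CPM in rats 91, 94 and 95 and 64.5, 146 and 76.1 CPM in rats 89, 90 and 93, with 1 high rat in each group. Ltc4s, the synthase of leukotriene C4, had 3.12, 1.92 and 5.01 CPM against 2.00, 1.57 and 1.65 CPM (log2(FC) -0.94, SE 0.37). Dnah8 and Dnah17, dyneins of motile cilia, were at log2(FC) values of -1.87 and -0.74 by the exact test, with overlapping rats and adjusted p values of 1.

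Among genes without a name, none was called with all 6 rats in either edgeR test or DESeq2, except in 2 alternatives of the exact test. It called 2 unnamed genes with total-count scaling over genes with a count, and 4, the former 2 included, after the filter on low counts. The smallest unadjusted p value in each direction was that of ENSRNOG00000015222 (0.0016) among the higher and of ENSRNOG00000059421 (0.0022) among the lower by edgeR's quasi-likelihood test. ENSRNOG00000015222 had 12.4, 13.8 and 16.5 CPM in group B and 25.9, 23.5 and 20.8 CPM in group C, and ENSRNOG00000059421 had 1.38, 1.15 and 1.06 CPM against 0.435, 0.184 and 0.347 CPM. Their log2(FC) values of 0.72 (SE 0.15) and -1.85 (SE 0.41) had adjusted p values of 0.88 and 1 by edgeR's quasi-likelihood test.

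The number of calls rested on single rats. Leaving out 1 rat at a time, the quasi-likelihood test called 0 genes without rat 91, 94, 95 or 90, 6 without rat 89 and 8 without rat 93. The 8 were S100a8, S100a9, RGD1564883, Slc4a1, Mpo, Np4, Defa5 and an unnamed gene. The pairwise exact test called 29, 30 and 21 genes without rats 91, 94 and 95 and 50, 36 and 66 without rats 89, 90 and 93. Of the 66, 34 were on the list of 43. In all 6 of these exact tests 17 of the 43 transcripts were called. They include 9 of the 13 granulocyte transcripts, 5 of the 18 red cell transcripts (Ahsp, Car1, Slc4a1, Rhd and Hemgn), 1 platelet transcript (Mmrn1), Mmp13 and RGD1564883, and none of the 5 globins or the 4 lower transcripts. Each of these tests shares its rats with the one that picked the list, so that these counts are no independent support for a class. The share of all genes called in all 6 was not computed. The ratio of 11 of the 43 moved by over 1.5 times without 1 rat. These were Hba-a1, Hba-a2, LOC103694857 and Alas2 (a log2(FC) of 1.06 without rat 93), Ppbp (4.37) and Mmp13 (4.19) without rat 91, Rhag without rat 91, where group B had no reads left, Ctsg (4.59) without rat 95, and Slc17a7, Gbp6 and AABR07043200.1 among the lower.

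**Figure D5:**
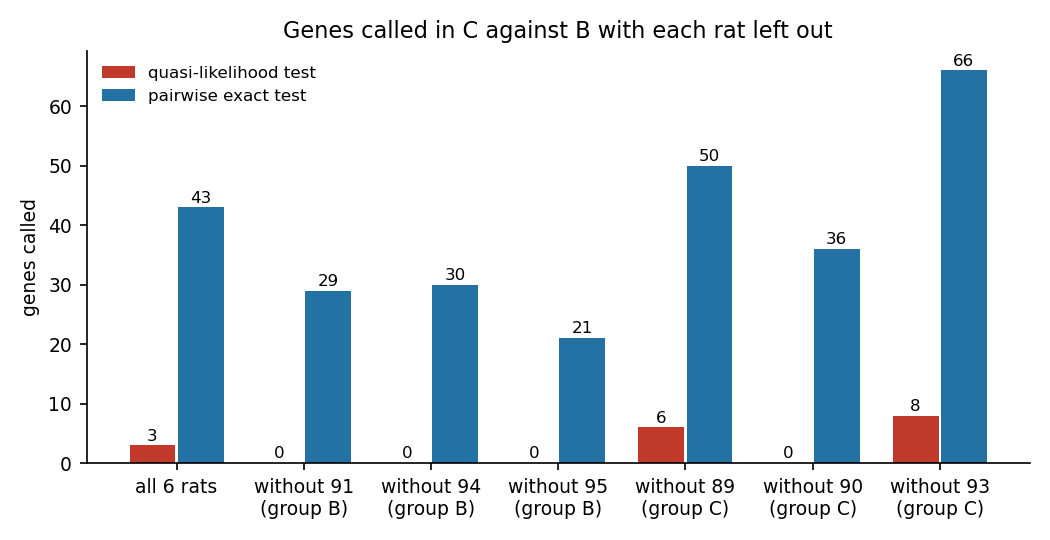
Number of genes called in C against B (y axis) with all 6 rats and with each rat left out in turn (x axis), by the 2 tests of edgeR (quasi-likelihood and pairwise exact). The exact test ranges from 21 genes without rat 95 to 66 without rat 93, and the quasi-likelihood test from 0 to 8.

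For a single value, an exact permutation test of 3 rats against 3 cannot go below p = 0.1 (2-sided), and it gives that value for each of the 42 transcripts whose groups did not overlap. Over all genes tested, non-overlap in either direction was found for 5.99%, and over all 32494 genes of the table for 4.05%.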

How the data were processed

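RNA from the spinal cord of 17 rats was sequenced from ribosome-depleted, stranded libraries, 1 library a rat. The authors deposited one table of raw gene counts, whole numbers for 32494 Ensembl genes, made with Trim Galore (0.4.1) and STAR (2.5.0a) after bcl2fastq (1.8.4) per the labels' processing notes. The study's methods and those notes name different rat builds, and the strand column used is not given in the sources used here, so that antisense partners and near copies may share reads. Groups follow the letters in the sample titles; the column names match the titles.

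The counts of groups B and C (6 rats) were tested with edgeR 4.0.16 in R 4.3.3 (TMM, filterByExpr, glmQLFit, glmQLFTest), with Benjamini-Hochberg adjustment over all genes tested and calls at an FDR below 0.05 and over 1 on the log2 scale in either direction. The exact test of edgeR used common and tagwise dispersions, a choice made after it was seen to give the study's 43 transcripts. The interaction, and group E against group A, were tested in a quasi-likelihood model of all 17 rats, and the latter also by the exact test and DESeq2 on 9 rats. CPM were TMM-scaled. DESeq2 1.42.0 and limma 3.58.1 were alternatives, with other scalings, filters and each rat left out in turn. Counting intervals are exact binomial. Fits were tested on simulated data, and tables and figures were made with Python 3.11.15.

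The transcripts named are those the study lists for this contrast, those called, and the other named identifiers; the members and lists were chosen with earlier results of these data known. Names came from the study's supplement for 99 identifiers only. The 32 gene lists written for tissues and pathways matched at 0% to 46.2% of their members, below the 80% required, so that counts over them, and the check of cord markers, are void and were not made; the list classes used are those of the 43 transcripts.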

Additional observations from a re-analysis of the deposited data

Results flagged for a closer look

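In the intact groups, single rats stood apart from the rest of their group for 5 of the 86 sets of values checked (43 transcripts in groups A and E, by Dixon's ratio of gap to range, which chance alone passes in about 1 of 20 groups). In group A, rat 84 stood above the other 3 rats for Car1 at 3.16 CPM, for Elane at 2.27 CPM and for Np4 at 9.87 CPM. In group E, rat 87 stood above the other 4 rats for Car1 at 3.38 CPM and for Abca13 at 1.69 CPM. Groups B and C hold 3 rats each and were not checked in this way.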

How the results depend on the processing

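The count of genes called in C against B depended on the test. It was 3 by edgeR's quasi-likelihood test on 6 rats, 43 by the exact test, 41 by the exact test with total-count scaling over genes with a count (39 of them among the 43), 24 by DESeq2 on the 6 rats, 13 by quasi-likelihood without a filter on low counts (all 13 among the 43), and 0 by quasi-likelihood on 17 rats, by DESeq2 on 17 rats and by limma-voom. RLE scaling, total-count scaling and a filter of 1 CPM in 3 rats gave 2, and robust dispersions or no limit on fold change gave 3. The adjusted p of S100a8, S100a9 and RGD1564883 reached 1 in the fit of 17 rats. Leaving out 1 rat gave 0 to 8 genes by quasi-likelihood, with 181 to 872 at an unadjusted p under 0.05, and 21 to 66 by the exact test, the extremes of the latter without rats 95 and 93. With each rat of group B, or rat 90 of group C, left out, the quasi-likelihood count was 0. Trended dispersions, added after the data were seen, gave 33 by the exact test, RLE scaling 43, total-count scaling 38 and the filter on low counts 41 (37 of them among the 43). The interaction called 0 genes in all alternatives run, except that leaving out 1 rat gave 0 to 3, the 3 without rat 82 of group A and all of them lower. None of the 43 listed transcripts and no class median changed sign in the alternatives run for them, which the choice of the list in part fixes, whereas 28 of the 56 other named identifiers changed sign in the exact tests without 1 rat, among them Mx1 (-1.13 to 0.40). In E against A the count was 0 by quasi-likelihood, 28 by the exact test, 18 by it with trended dispersions and 16 by DESeq2, the last 3 added after the data were seen. No paired analysis was possible because rat numbers are unique to each animal and no 2 groups share one. Depth limits the transcripts with few reads in group B, such as Car1, Ctsg, Rhag and RGD1564883, to the wide intervals given.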
